A study of Rattus norvegicus with 16 samples.

Results

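Ion channels that pass sodium, calcium or both set the resting potential, the action potential and the calcium signal of a cell. All probe sets of a neurobiology array whose platform symbol starts with Scn, Cacn, Hcn, Cng, P2rx, Ryr, Itpr, Trpc, Trpv or Asic, or is Nalcn, were taken as members, whatever their signal. The rule gave 70 of the 1263 probe sets tested, for 39 of the 720 genes on the array, of which 17 had more than 1 probe set. None of the analysed probe sets carried an Hcn, Ryr, Trpc or Trpv symbol.

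The tissue was the cochlea of newborn rats, dissected into the organ of Corti with the sensory hair cells, the modiolus, which holds the neurons of the spiral ganglion, and the stria vascularis, the epithelium that secretes endolymph. Each region was examined in 3 conditions on 16 Affymetrix RN_U34 arrays, which gave 9 groups, and every array held total RNA pooled from 12 cochleae. Native tissue was taken fresh after dissection. Normoxic explants were kept for 24 h in a serum-containing medium with insulin and transferrin, and hypoxic explants spent 5 h of the same 24 h at an oxygen pressure of 10 to 20 mmHg, from 3 h after plating, with 16 h of recovery. The labels give no strain, sex or genotype. Every group had 2 arrays except native modiolus and native stria vascularis with 1 each, so that the comparison with native tissue rests there on 1 pool. Nothing states whether repeats came from separate litters, and p-values then measure only the spread between these pools. Native modiolus and native stria vascularis have no spread of their own, and tests that use them take it from the groups with 2 arrays.

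Voltage-gated sodium channels carry the upstroke of the action potential, and voltage-gated calcium channels admit the calcium that releases transmitter at synapses, including the ribbon synapses of hair cells. In both families a pore-forming alpha subunit works with auxiliary subunits that govern its trafficking and gating. P2X receptors are cation channels opened by extracellular ATP, a signal present in the fluids of the cochlea, and the inositol trisphosphate receptor releases calcium from internal stores.

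Promoters of 3 of the members whose transcripts were lower after culture are shown as examples. They are the sodium leak channel Nalcn, the sodium channel Scn7a and the calcium channel beta subunit Cacnb3. Each stretch runs from 250 bases before to 50 bases after the annotated start, from RefSeq on the rat build GRCr8. Capitals mark 2 motifs found by a search of both strands, the E-box CANNTG and the GC box GGGCGG. An E-box and a GC box overlap once, in Cacnb3. The stretch of Nalcn lies at chr15:107147809-107148108 on the minus strand, that of Scn7a at chr3:71846235-71846534 on the minus strand and that of Cacnb3 at chr7:131666301-131666600 on the plus strand.
Nalcn: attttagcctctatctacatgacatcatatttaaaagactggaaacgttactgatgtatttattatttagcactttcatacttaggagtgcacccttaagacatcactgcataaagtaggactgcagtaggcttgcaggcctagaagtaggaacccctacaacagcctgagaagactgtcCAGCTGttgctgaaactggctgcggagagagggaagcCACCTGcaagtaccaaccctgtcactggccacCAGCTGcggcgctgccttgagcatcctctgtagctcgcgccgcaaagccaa
Scn7a: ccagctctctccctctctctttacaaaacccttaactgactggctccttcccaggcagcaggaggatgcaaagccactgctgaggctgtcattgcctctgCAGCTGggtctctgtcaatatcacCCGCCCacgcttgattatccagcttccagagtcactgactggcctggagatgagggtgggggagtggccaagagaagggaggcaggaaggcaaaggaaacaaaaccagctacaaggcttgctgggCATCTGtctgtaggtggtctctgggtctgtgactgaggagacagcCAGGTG
Cacnb3: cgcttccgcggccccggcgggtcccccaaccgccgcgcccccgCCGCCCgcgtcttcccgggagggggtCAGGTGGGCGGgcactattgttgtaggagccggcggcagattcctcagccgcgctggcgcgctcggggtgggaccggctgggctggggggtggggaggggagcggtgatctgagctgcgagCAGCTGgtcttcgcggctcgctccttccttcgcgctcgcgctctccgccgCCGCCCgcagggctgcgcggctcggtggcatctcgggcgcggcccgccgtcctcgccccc
The Nalcn stretch held 48.7% G and C with 7 CpG dinucleotides, the Scn7a stretch 56% with 2 and the Cacnb3 stretch 77.7% with 44. RefSeq promoters were at hand for 33 of the 39 member genes, and P2rx2 was among those without an entry. An E-box stood in 69.7% of the 33 and in 71.6% of all 27457 promoters, and a GC box in 42.4% and 34.9%. The letters TATAAA stood in 6.06% and 14.3%, and TGANTCA, the AP-1 site, in 6.06% and 7.33%. CAGCACC, part of the REST site, stood in 3.03% and 6.91%, and the cyclic AMP response element TGACGTCA in 0% and 1.91%. ACGTG, the only form of the hypoxia response element core that was searched, stood in 0% and 19.7%. A match is a description of these letters, not a site of binding.

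The median signal per array ran from 548.2 to 930 linear units. The 95th percentile of the 23 controls against foreign sequences, taken as the background of each array, ran from 236.8 to 772.2, and a group is called not above background where none of its arrays passed its own percentile. Scan session 1 held every native array, while repeat 1 of each cultured group fell in session 2 and repeat 2 in session 3, so that culture and scan session cannot be told apart. GAPDH 3′ over 5′ signal, a gauge of RNA integrity and labelling, was 3.388 to 4.763 on native arrays and 1.075 to 1.39 on cultured arrays, and its part in the differences from native tissue was not tested. The descriptions of native modiolus and native stria vascularis call them fresh, while their protocol field speaks of cultivation. The chemokine Ccl2, which was bright in every culture, read 982.7 in native modiolus, 539.6 in native stria vascularis, at most 476.4 in native organ of Corti and at least 9643 in culture. Hmox1, a heme-degrading stress enzyme, read 4088, 6957, at most 2666 and at least 24810. Of the markers of hair cells only Chrna9 was measured. It read 857.9 to 860.2 in native organ of Corti and was not above background in native modiolus or native stria vascularis. Nor was Chrna9 above background in normoxic modiolus. In hypoxic modiolus it read 576.7 to 825.4, against 731.9 to 808.8 in hypoxic organ of Corti. The 4 measured markers of the stria vascularis, Kcne1, Kcnq1, Atp1b2 and Kcnj10, summed to 79849 in native stria vascularis and to 6695.2 to 9112.5 in the other native tissues. Neuronal markers summed to 117620 in native modiolus and to 117698 to 128692 in native organ of Corti, so that they did not set the modiolus apart from the organ of Corti, and to 15587.7 in native stria vascularis. The macrophage marker Itgam was above background in no group.

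Of the 70 member probe sets 18 (25.7%) were above background in no group, against 13.7% of all 1263, and 19 (27.1%) were above it in all 9 groups, against 45.4%. By gene, 35 of 39 were above background somewhere by at least 1 probe set. The 4 that were not are Scn2b, a beta subunit of neuronal sodium channels, Scnn1b, a subunit of the epithelial sodium channel, Cacna1s, the pore of the skeletal muscle calcium channel, and the ATP receptor P2rx1. Between 29 members, in normoxic modiolus, and 43, in native organ of Corti and native modiolus, were above background in a group. Member signals of the 2 arrays of a group correlated at r = 0.751 in normoxic modiolus and 0.861 to 0.93 in the other groups with 2 arrays, a description across probe sets that are not independent replicates.

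Normoxic explants were compared with native tissue to see how each region differed after 24 h in culture. Averaged over the 3 regions, 14 of 70 member probe sets (20%) were lower in culture and 0 were higher in limma at an adjusted p below 0.05. Of all 1263 probe sets 32% passed, 18.7% lower and 13.3% higher. The share of members that were lower was near that of the whole array. The 14 stand for 12 genes: Nalcn, Scn1a, Scn7a, Scn9a, Scnn1a, Asic1, Cacna1b, Cacna1g, Cacna2d1, Cacnb2, Cacnb3 and Itpr1. The median log2 difference was -0.17 for the members and -0.14 for all probe sets. By subfamily, 4 of 15 probe sets of voltage-gated sodium channel alpha subunits fell, 2 of 2 of Nalcn, 1 of 3 of the epithelial sodium channel, 1 of 3 of acid-sensing channels, 2 of 18 of calcium channel alpha subunits, 3 of 5 of calcium channel auxiliary subunits and 1 of 5 of Itpr1. None of 10 P2X and 8 cyclic nucleotide-gated probe sets passed. In whole tissue, fewer cells of a type and less RNA per cell cannot be told apart.

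**Figure D1:**
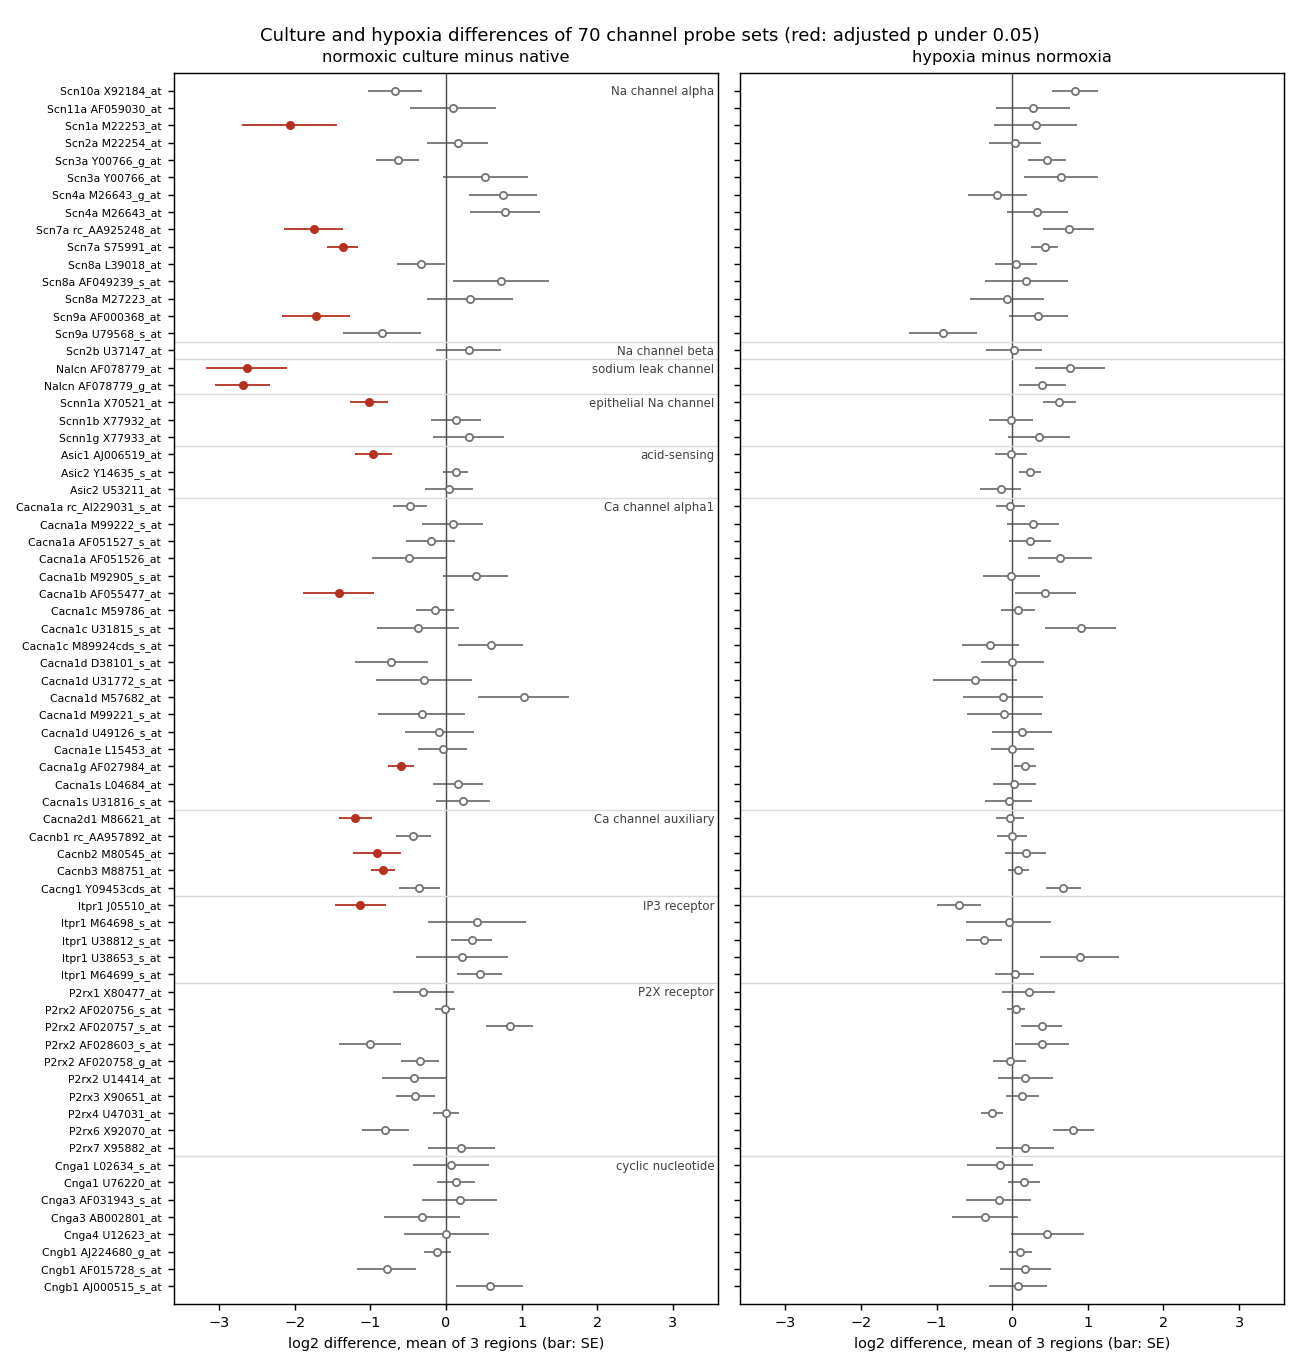
Log2 difference of each of the 70 member probe sets, as the mean of 3 regions, for normoxic culture minus native tissue (left) and hypoxia minus normoxia (right), grouped by subfamily, with bars of 1 standard error and red points for an adjusted p below 0.05. The 14 red points all lie left of 0 in the culture panel, and the hypoxia panel has none.

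Other cells' markers moved with culture. Of 9 measured neuronal markers (Nefl, Nefm, Nefh, Gap43, Snap25, Eno2, Map2, Mapt and Sncg) 6 fell and 0 rose in the mean of the 3 regions. Their summed signal was 117698 to 128692 in native and 69802 to 76584.7 in normoxic organ of Corti, 117620 and 45389.3 to 52954.1 in the modiolus, and 15587.7 and 22517.9 to 23159.3 in the stria vascularis. Of 6 Schwann cell and myelin markers (Mbp, Cnp, S100b, Sox10, Mag and Mog) 5 fell. The sum of the 6 went from 78075.7 to 86184.1 down to 20374.6 to 22382.3 in organ of Corti. It went from 101313 to 27742.3 to 30584.6 in the modiolus and from 85635.3 to 14427 to 18055.6 in the stria vascularis. In native stria vascularis Mbp and Mog were not above background, so that its sum rested on the other markers. Of the 4 markers of the stria 3 fell in that region, with sums of 79849 native and 19033.5 to 20851.2 normoxic. The part of these markers in the channel differences was not tested.

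Nalcn, the voltage-insensitive leak channel that lets sodium into resting neurons, fell in culture on both of its probe sets. Signals of Nalcn on AF078779_at were 3022 and 3001 in native organ of Corti, 857 and 849.8 after normoxic culture and 1347 and 852 after hypoxia. Nalcn in the modiolus read 2107 native, 278.5 and 31.8 after normoxic culture and 149 and 894.5 after hypoxia. Nalcn in the stria vascularis read 2765 native, 815 and 603 after normoxic culture and 825 and 849.9 after hypoxia. All 4 native arrays were brighter than all 12 cultured arrays. Signals of Nalcn on AF078779_g_at were 2759.9 and 2469.5 in native organ of Corti, 757 and 264 after normoxic culture and 1031 and 765 after hypoxia. Nalcn in the modiolus read 1411 native, 117 and 134 after normoxic culture and 57.2 and 132 after hypoxia. Nalcn in the stria vascularis read 2304 native, 396 and 568 after normoxic culture and 923 and 645 after hypoxia. Again every native array lay above every cultured one. Averaged over the regions, Nalcn fell by 2.64 on the log2 scale on the first probe set (SE 0.54, limma adjusted p = 0.0021) and differed by -2.69 on the second (SE 0.36, adjusted p = 8.2e-05). In normoxic modiolus neither probe set was above background, so that the falls are at least 3.62-fold and 3.98-fold. Such at-least folds raise the signals of groups not above background to the background percentile of each array, and fitted log2 values of dim groups depend on the background. Within the modiolus, with 1 native array, Nalcn fell by 4.16 and 3.33 on the log2 scale (adjusted p = 0.0090 and 0.0031), or at least 3.5-fold and 2.35-fold. In the organ of Corti AF078779_g_at fell by 2.50 (adjusted p = 0.0066) and in the stria vascularis the difference was -2.24 (adjusted p = 0.043), while AF078779_at differed there by -1.80 and -1.96 without passing. The organ of Corti call of AF078779_g_at was lost without native repeat 1 (adjusted p = 0.054) or normoxic repeat 2 (adjusted p = 0.072). The stria call was lost without any of 8 arrays, namely both native and both hypoxic arrays of the organ of Corti and all 4 cultured arrays of the stria, at adjusted p values of up to 0.17.

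**Figure D2:**
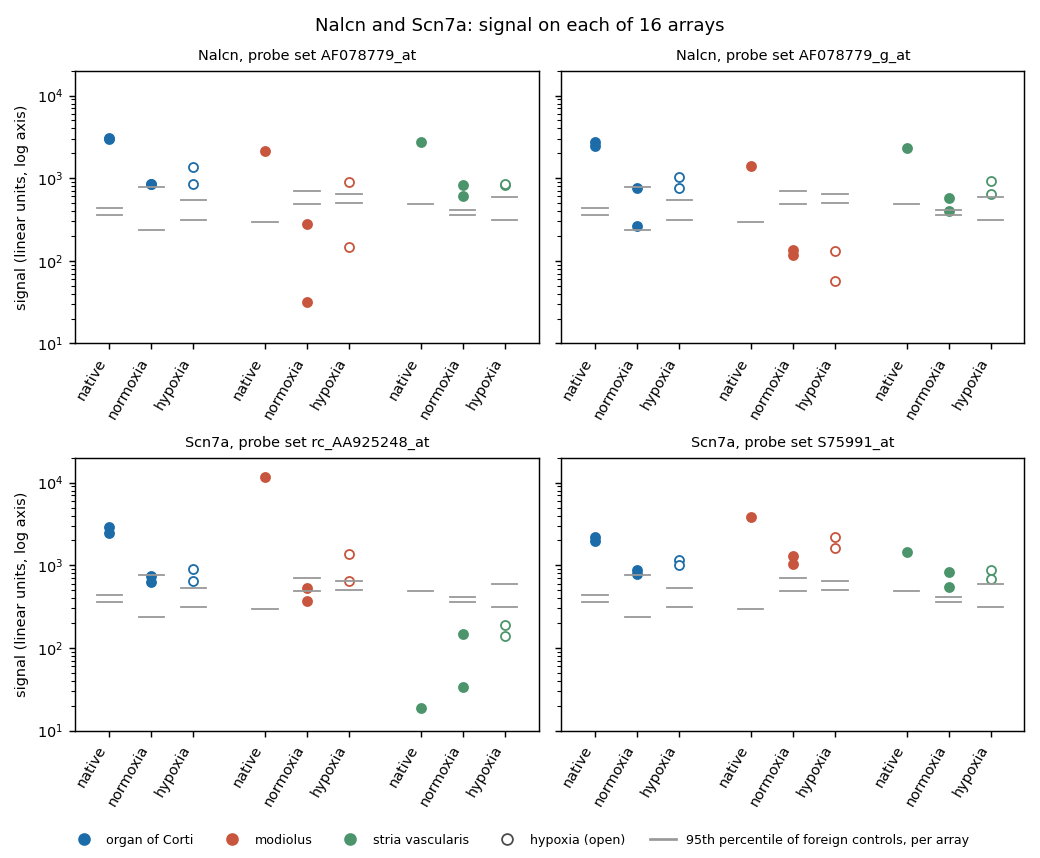
Signal of the 2 probe sets of Nalcn and the 2 of Scn7a on each of the 16 arrays by region and condition, on a log axis, with a grey line for the background percentile of each array. Native arrays of Nalcn lie at 1411 or above, and Scn7a on rc_AA925248_at spans 18.9 in native stria vascularis to 11551 in native modiolus.

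Scn7a, an atypical member of the sodium channel family that senses extracellular sodium and is known from glia and Schwann cells, was measured by 2 probe sets. Signals of Scn7a on rc_AA925248_at were 2455 and 2905 in native organ of Corti, 736 and 619.5 after normoxic culture and 908 and 640.4 after hypoxia. Scn7a in the modiolus read 11551 native, 526 and 372.5 after normoxic culture and 1361 and 647 after hypoxia. Scn7a in the stria vascularis read 18.9 native, 33.3 and 146 after normoxic culture and 189 and 141 after hypoxia. The native modiolus array was the brightest of all 16, and no array of the stria vascularis was above background. Signals of Scn7a on S75991_at were 2192 and 1985 in native organ of Corti, 872 and 781 after normoxic culture and 1168 and 1005 after hypoxia. Scn7a in the modiolus read 3839 native, 1026.5 and 1303 after normoxic culture and 2200.4 and 1597 after hypoxia. Scn7a in the stria vascularis read 1429 native, 829 and 547 after normoxic culture and 885 and 685.5 after hypoxia. On this probe set the native arrays of each region were brighter than all cultured arrays of that region. In the mean of the 3 regions Scn7a fell by 1.75 on the log2 scale on rc_AA925248_at (SE 0.39, adjusted p = 0.0037) and by 1.37 on S75991_at (SE 0.21, adjusted p = 0.00022). No at-least fold is given for rc_AA925248_at in this mean, since native stria vascularis was itself not above background. Within the modiolus the 2 probe sets fell by 4.66, at least 19.1-fold (adjusted p = 0.00050), and by 1.72 (adjusted p = 0.0058). In the organ of Corti they fell by 1.96 (adjusted p = 0.034) and 1.32 (adjusted p = 0.0099). The organ of Corti calls did not hold without native repeat 1 or normoxic repeat 2 (adjusted p = 0.12 and 0.15 for rc_AA925248_at, 0.076 and 0.067 for S75991_at), and that of rc_AA925248_at also not without native repeat 2 or normoxic repeat 1 (0.17 and 0.097).

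The size of the culture difference of Scn7a varied between the regions on rc_AA925248_at (moderated F test, adjusted p = 0.015). This was 1 of 70 members, against 3.33% of all probe sets. Since the stria vascularis was not above background on this probe set in native tissue, a fall there could hardly be seen. S75991_at, above background in every group, gave an adjusted p of 0.90 in the same test. After Scn7a the smallest adjusted p values were 0.18 for Cacnb2 and 0.22 for Scn10a. The native array of the modiolus and that of the stria vascularis each stand alone in their group and could not be left out of this test. How far the Scn7a result depends on these 2 arrays was therefore not tested.

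Scn1a, a pore of central and peripheral neurons, was above background only on the 3 native arrays of the organ of Corti and the modiolus. Signals of Scn1a on M22253_at were 787.5 and 895 in native organ of Corti, 171 and 84.5 after normoxic culture and 182 and 92.5 after hypoxia. Scn1a in the modiolus read 921 native, 268 and 34.3 after normoxic culture and 51.8 and 123 after hypoxia. Scn1a in the stria vascularis read 76.6 native, 130.1 and 9.9 after normoxic culture and 199 and 68.5 after hypoxia. It fell by 2.07 on the log2 scale in culture (SE 0.63, adjusted p = 0.023), a value that depends on the background. Leaving out normoxic repeat 2 of the organ of Corti, the modiolus or the stria vascularis ended this call (adjusted p = 0.056, 0.055 and 0.057).

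Scn9a, the sodium channel of peripheral sensory and sympathetic neurons, fell on 1 of its 2 probe sets. Signals of Scn9a on AF000368_at were 883 and 1030.1 in native organ of Corti, 711.5 and 249 after normoxic culture and 509 and 323 after hypoxia. Scn9a in the modiolus read 1196 native, 64.7 and 212 after normoxic culture and 616 and 314 after hypoxia. Scn9a in the stria vascularis read 417 native, 217.5 and 224.5 after normoxic culture and 93 and 193 after hypoxia. In the modiolus the native array stood above all 4 cultured ones, while in the organ of Corti 1 normoxic array came near the native pair. The difference in culture was -1.72 ± 0.45 (SE, adjusted p = 0.010) and within the modiolus -3.16, a fall of at least 2.0-fold (adjusted p = 0.016). The modiolus call was lost without normoxic repeat 1 (adjusted p = 0.081). The second probe set, U79568_s_at, was above background in 4 groups, spanned 47.2 to 955.3 and differed by -0.85 ± 0.52 (adjusted p = 0.25).

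Scn10a, a channel of pain-sensing neurons, passed within the organ of Corti (-2.19, adjusted p = 0.013), although it was above background on 1 array only, that of native modiolus. Signals of Scn10a on X92184_at were 278 and 298 in native organ of Corti, 30.8 and 79.1 after normoxic culture and 378 and 261 after hypoxia. Scn10a in the modiolus read 338 native, 439 and 366 after normoxic culture and 447 and 328 after hypoxia. Scn10a in the stria vascularis read 239 native, 283.5 and 182 after normoxic culture and 308 and 240.4 after hypoxia. Signals below background have no firm order, and the call was lost without either native organ of Corti array (adjusted p = 0.067 and 0.073) or normoxic repeat 1 (adjusted p = 0.11).

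Scn3a, the sodium channel of embryonic and newborn neurons, had 2 probe sets, of which Y00766_g_at was above background in all groups. Signals of Scn3a on Y00766_g_at were 1305 and 1012 in native organ of Corti, 758 and 1049.7 after normoxic culture and 1227 and 691 after hypoxia. Scn3a in the modiolus read 1206 native, 706 and 628 after normoxic culture and 1388 and 1317 after hypoxia. Scn3a in the stria vascularis read 897 native, 415 and 697 after normoxic culture and 933 and 492 after hypoxia. Its difference in culture was -0.64 ± 0.28 (adjusted p = 0.11) and native and cultured arrays overlapped in the organ of Corti. Its other probe set, Y00766_at, reached 508.7 and was above background on 1 array. Scn8a, the channel of the nodes of Ranvier, had 3 probe sets of which L39018_at was above background in all 9 groups. Signals of Scn8a on L39018_at were 800.5 and 811 in native organ of Corti, 665 and 439.6 after normoxic culture and 807 and 611 after hypoxia. Scn8a in the modiolus read 791 native, 869 and 410.3 after normoxic culture and 796 and 576 after hypoxia. Scn8a in the stria vascularis read 515 native, 669 and 382 after normoxic culture and 424 and 347 after hypoxia. Native and cultured ranges overlapped in every region. AF049239_s_at was above background in 4 groups and M27223_at in none. Scn2a, a channel of unmyelinated axons, was above background on 5 arrays. Signals of Scn2a on M22254_at were 628 and 263 in native organ of Corti, 531 and 305 after normoxic culture and 362 and 295 after hypoxia. Scn2a in the modiolus read 441 native, 474.5 and 249 after normoxic culture and 884 and 623.5 after hypoxia. Scn2a in the stria vascularis read 191.5 native, 467 and 263 after normoxic culture and 287 and 156.5 after hypoxia. The regions and conditions overlapped. Scn4a, the skeletal muscle pore, spanned 225.5 to 1749 on M26643_g_at and was above background in 6 groups, and Scn11a, another channel of pain-sensing neurons, spanned 57.1 to 823.9 and was above background in 5. Chrna1, the muscle acetylcholine receptor subunit and the one muscle marker measured, was above background in all groups at 477.7 to 1986. Scn2b stayed between 24.4 and 236.4.

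Of the epithelial sodium channel, which carries sodium out of the endolymph in parts of the ear, Scnn1a fell in culture. Signals of Scnn1a on X70521_at were 1598 and 1152 in native organ of Corti, 1229 and 754 after normoxic culture and 876.5 and 1163.5 after hypoxia. Scnn1a in the modiolus read 1324 native, 409 and 587 after normoxic culture and 1406 and 1013 after hypoxia. Scnn1a in the stria vascularis read 1486 native, 564 and 753.5 after normoxic culture and 915 and 1004 after hypoxia. The native array lay above the normoxic pair in the modiolus and the stria vascularis, and in the organ of Corti the pairs overlapped. Scnn1a fell by 1.02 in log2 units (SE 0.25, 2.03-fold, adjusted p = 0.0068). Within the modiolus it fell by 1.40 (adjusted p = 0.046), a call that was lost without any of 9 arrays, namely normoxic modiolus repeat 1 (adjusted p = 0.15), both native and both hypoxic arrays of the organ of Corti and all 4 cultured arrays of the stria (adjusted p = 0.053 to 0.059). Scnn1g spanned 110.9 to 2085 and did not pass in culture, and Scnn1b was above background nowhere.

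Asic1, an acid-sensing channel opened by protons, fell in culture as well. Signals of Asic1 on AJ006519_at were 1835 and 1944 in native organ of Corti, 1185 and 1228 after normoxic culture and 1449 and 777 after hypoxia. Asic1 in the modiolus read 1725 native, 686 and 557.5 after normoxic culture and 847 and 789.6 after hypoxia. Asic1 in the stria vascularis read 1378 native, 1024 and 600.5 after normoxic culture and 718 and 605 after hypoxia. Native arrays were brighter than all cultured arrays of their region. Asic1 fell by 0.97 in log2 units (SE 0.25, 1.95-fold, adjusted p = 0.0087). Within the modiolus the fall was 1.46 (adjusted p = 0.037), and the call was lost without either normoxic modiolus array (adjusted p = 0.056 and 0.12) or any 1 of the 4 native and normoxic arrays of the organ of Corti (adjusted p = 0.050 to 0.055). Asic2 on Y14635_s_at was even across the study. Signals of Asic2 on Y14635_s_at were 1271 and 1409.5 in native organ of Corti, 1319.6 and 1514 after normoxic culture and 1823 and 1553 after hypoxia. Asic2 in the modiolus read 1126 native, 1189 and 1546 after normoxic culture and 1786 and 1621 after hypoxia. Asic2 in the stria vascularis read 1379.7 native, 1298.5 and 1547 after normoxic culture and 1663 and 1444 after hypoxia. All 16 values fell between 1126 and 1823.

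Among calcium channel alpha subunits, 2 of 18 probe sets fell in culture, for the N-type channel Cacna1b and the low-voltage-activated T-type channel Cacna1g. Signals of Cacna1b on AF055477_at were 1149.9 and 614 in native organ of Corti, 172 and 81 after normoxic culture and 863 and 190.4 after hypoxia. Cacna1b in the modiolus read 933 native, 453 and 496 after normoxic culture and 585 and 524 after hypoxia. Cacna1b in the stria vascularis read 582 native, 517 and 259 after normoxic culture and 176.5 and 336 after hypoxia. Native Cacna1b signals exceeded the normoxic ones in every region, by little in the stria vascularis. Cacna1b fell by 1.42 on the log2 scale on AF055477_at (SE 0.46, adjusted p = 0.033), at least 1.8-fold, with a difference of -2.67 within the organ of Corti (adjusted p = 0.018), at least 1.92-fold. The averaged call was lost without native organ of Corti repeat 1 (adjusted p = 0.087), normoxic repeat 2 of the organ of Corti (0.074) or of the stria (0.080), or either normoxic modiolus array (0.059 and 0.053). The organ of Corti call was lost without native repeat 1 (adjusted p = 0.16) or normoxic repeat 2 (0.13). The brighter probe set of Cacna1b, M92905_s_at, pointed the other way without passing, at 0.39 ± 0.43 (adjusted p = 0.55). Signals of Cacna1b on M92905_s_at were 1621 and 1518 in native organ of Corti, 505 and 1068 after normoxic culture and 3384 and 1000 after hypoxia. Cacna1b in the modiolus read 628 native, 887 and 1586 after normoxic culture and 1596 and 573 after hypoxia. Cacna1b in the stria vascularis read 491 native, 922 and 1767 after normoxic culture and 455 and 826 after hypoxia. In the organ of Corti native arrays lay above the normoxic pair, and in the modiolus and the stria vascularis below it.

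Signals of Cacna1g on AF027984_at were 2871 and 2301 in native organ of Corti, 2219.5 and 1826 after normoxic culture and 1998 and 1962 after hypoxia. Cacna1g in the modiolus read 3950.3 native, 2620 and 2284 after normoxic culture and 3188 and 2411 after hypoxia. Cacna1g in the stria vascularis read 2967 native, 1711 and 1787.5 after normoxic culture and 2792 and 1821 after hypoxia. Every native Cacna1g value exceeded the normoxic values of its region. Cacna1g fell by 0.60 in log2 units (SE 0.17, 1.51-fold, adjusted p = 0.016), and quantile normalization ended the call (adjusted p = 0.067). The other alpha subunits did not pass in culture. Cacna1a, the P/Q-type channel, was bright on rc_AI229031_s_at. Signals of Cacna1a on rc_AI229031_s_at were 4901 and 2699 in native organ of Corti, 2518 and 2341 after normoxic culture and 2975 and 2008 after hypoxia. Cacna1a in the modiolus read 5847 native, 3438 and 3808 after normoxic culture and 5596 and 3113.5 after hypoxia. Cacna1a in the stria vascularis read 3231 native, 2516 and 3296 after normoxic culture and 2074 and 2688 after hypoxia. All 16 values lay between 2008 and 5847. The other 3 probe sets of Cacna1a were above background on 1, 0 and 1 arrays. Cacna1c, the cardiac and smooth muscle L-type channel, was above background on every array on M59786_at. Signals of Cacna1c on M59786_at were 1448 and 1137 in native organ of Corti, 1668 and 911 after normoxic culture and 2098 and 1427 after hypoxia. Cacna1c in the modiolus read 2396 native, 2484 and 1652 after normoxic culture and 2571 and 2052.5 after hypoxia. Cacna1c in the stria vascularis read 1845 native, 1743 and 1600.3 after normoxic culture and 1694 and 889 after hypoxia. Native and cultured values overlapped in every region but the stria vascularis, where the native array was the highest. Cacna1d, the L-type channel that carries the calcium current of hair cells, was dim on all 5 of its probe sets, of which D38101_s_at was above background most often. Signals of Cacna1d on D38101_s_at were 717 and 518 in native organ of Corti, 508 and 532.5 after normoxic culture and 535 and 588 after hypoxia. Cacna1d in the modiolus read 512 native, 396 and 90.5 after normoxic culture and 460.3 and 92 after hypoxia. Cacna1d in the stria vascularis read 769 native, 507.5 and 488 after normoxic culture and 372 and 481 after hypoxia. The highest Cacna1d values were those of native stria vascularis and native organ of Corti repeat 1. Of its other 4 probe sets 3 were above background nowhere. Cacna1e, the R-type channel, spanned 377.4 to 1262 and was above background in all 9 groups. Cacna1s, on 2 probe sets, stayed at 193.2 or below.

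Of the auxiliary calcium channel subunits 3 of 5 fell. Cacna2d1, the extracellular alpha2delta subunit that brings channels to the surface, fell on its single probe set. Signals of Cacna2d1 on M86621_at were 2050.5 and 1759.5 in native organ of Corti, 782 and 1021 after normoxic culture and 1593 and 1244 after hypoxia. Cacna2d1 in the modiolus read 964 native, 663.5 and 444 after normoxic culture and 455 and 468 after hypoxia. Cacna2d1 in the stria vascularis read 4079 native, 1103 and 1381 after normoxic culture and 936 and 786 after hypoxia. Native arrays were brighter than all cultured arrays of their region, and native stria vascularis was the brightest of all. Cacna2d1 fell by 1.20 in log2 units (SE 0.21, adjusted p = 0.00086), at least 2.23-fold. Within the organ of Corti it fell by 1.07 (adjusted p = 0.036) and within the stria vascularis by 1.71 (adjusted p = 0.012). The organ of Corti call was lost without either native array (adjusted p = 0.21 and 0.10) or either normoxic array (0.20 and 0.067), and the stria call without normoxic repeat 1 (0.068).

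Cacnb3, a cytoplasmic beta subunit of neuronal calcium channels, was above background on all 16 arrays. Signals of Cacnb3 on M88751_at were 4889.5 and 4136 in native organ of Corti, 2598 and 3619 after normoxic culture and 3031 and 3034 after hypoxia. Cacnb3 in the modiolus read 2689 native, 1045 and 1204 after normoxic culture and 1013 and 1129 after hypoxia. Cacnb3 in the stria vascularis read 2681 native, 1459 and 1884 after normoxic culture and 1966 and 2187 after hypoxia. In each region native arrays lay above all cultured ones. Cacnb3 fell by 0.83 in log2 units (SE 0.16, 1.78-fold, adjusted p = 0.0014), and within the modiolus by 1.25 (2.38-fold, adjusted p = 0.0082, and 0.097 in a fit on only the arrays compared). Cacnb2, another beta subunit, moved unevenly. Signals of Cacnb2 on M80545_at were 606 and 541 in native organ of Corti, 822 and 689.7 after normoxic culture and 588 and 381 after hypoxia. Cacnb2 in the modiolus read 496 native, 66.6 and 149 after normoxic culture and 286 and 215 after hypoxia. Cacnb2 in the stria vascularis read 1287 native, 624 and 656 after normoxic culture and 641 and 653 after hypoxia. In the modiolus and the stria vascularis native Cacnb2 lay above the normoxic pair, and in the organ of Corti below it. The averaged fall was 0.91 (SE 0.31, adjusted p = 0.041), at least 1.09-fold, and the difference within the modiolus -2.13 (adjusted p = 0.019). The test of a difference between regions did not pass for Cacnb2 (adjusted p = 0.18). The averaged call was lost without any of 9 arrays, namely all 4 native and normoxic arrays of the organ of Corti, normoxic modiolus repeat 1 and all 4 cultured arrays of the stria, at adjusted p values of 0.053 to 0.086, and the modiolus call without normoxic repeat 1 (0.077). Cacnb1, the beta subunit of skeletal muscle that neurons also hold, did not pass (-0.43 ± 0.23, adjusted p = 0.19). Signals of Cacnb1 on rc_AA957892_at were 2009 and 1815 in native organ of Corti, 1559 and 1179 after normoxic culture and 2255 and 1697 after hypoxia. Cacnb1 in the modiolus read 2332.5 native, 2317 and 1893 after normoxic culture and 1640.1 and 758 after hypoxia. Cacnb1 in the stria vascularis read 1761 native, 1160.5 and 1059.9 after normoxic culture and 1675 and 1243 after hypoxia. Native Cacnb1 values lay above the normoxic ones in each region, by little in the modiolus, and hypoxic organ of Corti repeat 1 exceeded both native arrays of its region. Cacng1, the gamma subunit of skeletal muscle, spanned 449 to 1703 without a call.

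**Figure D3:**
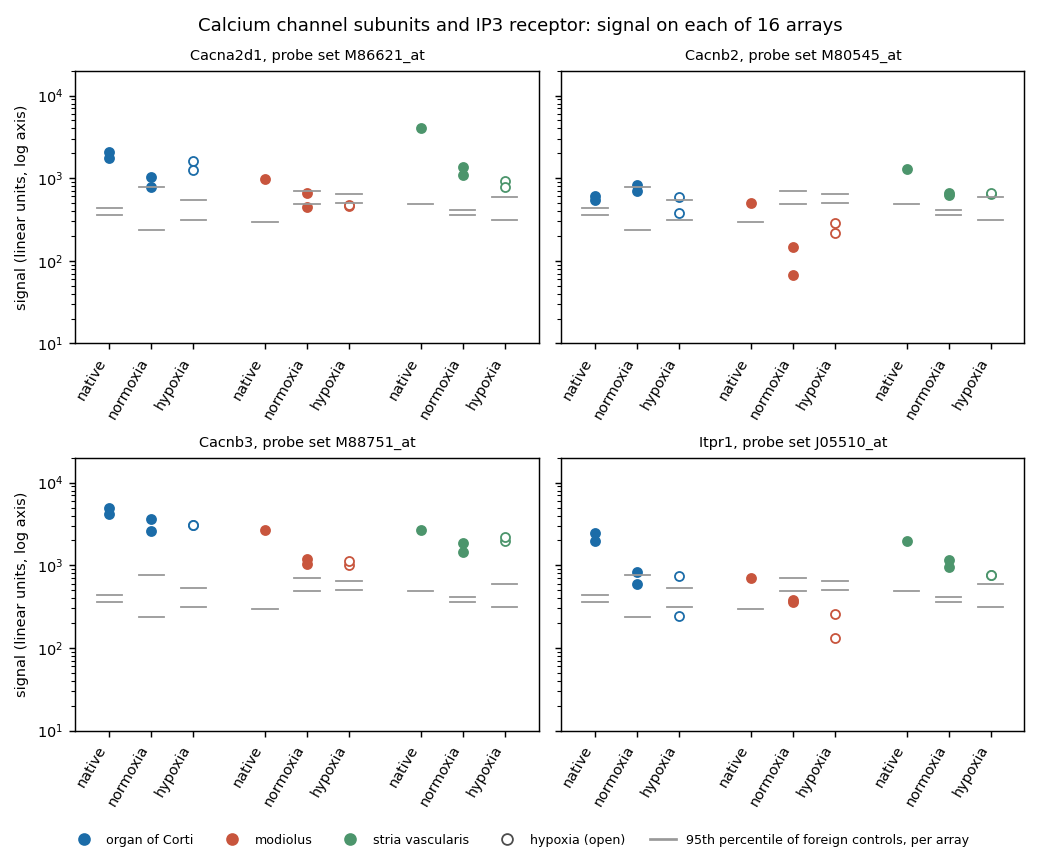
Signal of Cacna2d1, Cacnb2, Cacnb3 and Itpr1 (J05510_at) on each of the 16 arrays by region and condition, on a log axis, with a grey line for the background percentile of each array. Native arrays of Cacna2d1, Cacnb3 and Itpr1 lie above all cultured arrays of their region, and modiolus arrays of Cacnb2 lie at 496.1 or below.

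Itpr1, the calcium release channel opened by inositol trisphosphate, had 5 probe sets of which only J05510_at rose above background. Signals of Itpr1 on J05510_at were 1989 and 2448 in native organ of Corti, 830.3 and 597 after normoxic culture and 246 and 735 after hypoxia. Itpr1 in the modiolus read 701 native, 357 and 376.5 after normoxic culture and 131 and 257 after hypoxia. Itpr1 in the stria vascularis read 1946 native, 1159.5 and 966 after normoxic culture and 765 and 756 after hypoxia. Native arrays were the brightest of their region throughout. Itpr1 fell by 1.13 in log2 units (SE 0.33, adjusted p = 0.020), at least 1.88-fold, and within the organ of Corti by 1.63 (adjusted p = 0.043). The averaged call was lost without native organ of Corti repeat 2 (adjusted p = 0.051). The call within the organ of Corti was lost without any of 10 arrays, namely its own 4 native and normoxic arrays, both normoxic arrays of the modiolus and all 4 cultured arrays of the stria, at adjusted p values of up to 0.21.

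Taken region by region, 7 members (10%) fell in the organ of Corti, against 17.3% of all probe sets called in either direction, 8.79% lower and 8.47% higher. In the modiolus 10 (14.3%) fell, against 20.9%, 10.8% lower and 10.1% higher, and in the stria vascularis 2 (2.86%), against 13.7%, 6.33% lower and 7.36% higher. The organ of Corti count was 0 without native repeat 1, 3 without native repeat 2 or normoxic repeat 1 and 1 without normoxic repeat 2, and the stria count was 0 without normoxic repeat 1 and 1 without any of 7 others (both native and both hypoxic arrays of the organ of Corti, the other normoxic and both hypoxic arrays of the stria). In a fit on only the modiolus arrays 4 of its 10 calls remained, those of both probe sets of Nalcn and of Scn7a. In the stria vascularis Scn7a on S75991_at came next without passing (-1.07 ± 0.38, adjusted p = 0.092). Upward the smallest p-values there were those of Scn7a on rc_AA925248_at (1.36, adjusted p = 0.28), Cacna1b on M92905_s_at (1.35, adjusted p = 0.36) and Itpr1 on U38812_s_at (0.80, adjusted p = 0.39), of which the first and the last were not above background in that region. With all native arrays of 1 scan session, no value within a session exists for culture. With the session as a random block 12 of the 14 averaged calls remained, but such a block cannot separate culture from session here.

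Receptors for ATP, calcium channel subunits and Nalcn were among the members that differed between the regions. Region differences were taken as the mean of the native, normoxic and hypoxic differences. Between the organ of Corti and the modiolus 16 of 70 members (22.9%) passed, 13 higher and 3 lower in the organ of Corti, against 23.9% of all probe sets, 11.4% higher and 12.5% lower. Between the organ of Corti and the stria vascularis 5 members (7.14%) passed, all higher in the organ of Corti, against 17.2% of all, 11.2% higher and 5.94% lower. Between the modiolus and the stria vascularis 16 (22.9%) passed, 5 higher and 11 lower in the modiolus, against 25.4% of all, 16.7% higher and 8.71% lower. The shares called were near or below those of the whole array. In all, 19 probe sets of 13 genes passed in at least 1 of the 3 comparisons. Scaling matters to the direction here. The median of all probe sets moved from 0.34 to -0.06 in modiolus minus stria vascularis when arrays were centred on their median, and member calls then split into 3 higher and 13 lower. In organ of Corti minus stria vascularis that median moved from 0.11 to -0.20 and the calls split into 2 higher and 2 lower, and in organ of Corti minus modiolus it moved from -0.20 to -0.11 with 13 higher and 1 lower.

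**Figure D4:**
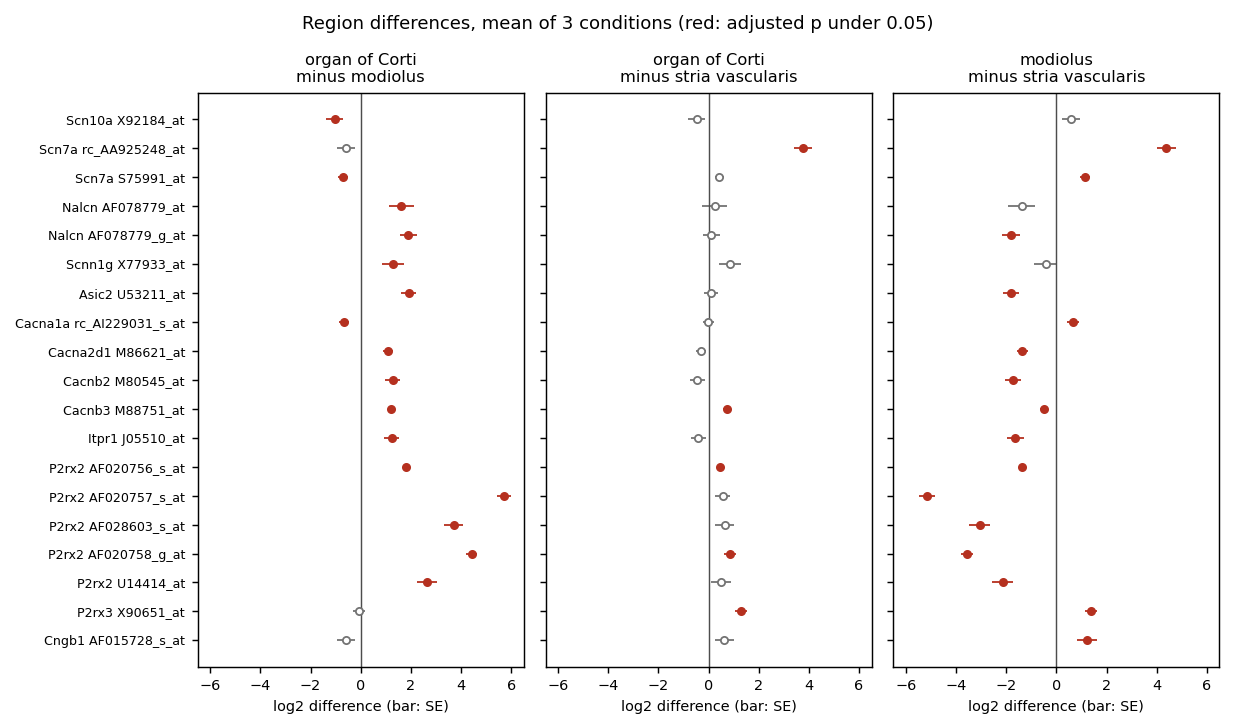
Log2 difference between regions, as the mean of 3 conditions, of the 19 member probe sets that passed in at least 1 of the 3 comparisons, with bars of 1 standard error and red points for an adjusted p below 0.05. The 5 probe sets of P2rx2 lie right of 0 in organ of Corti minus modiolus and left of 0 in modiolus minus stria vascularis.

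P2rx2 encodes an ATP-gated channel known from the hair cells, supporting cells and other cells that line the endolymph, and from the spiral ganglion. All 5 of its probe sets were lower in the modiolus than in both other regions. Signals of P2rx2 on AF020756_s_at were 11202 and 10638 in native organ of Corti, 13251 and 15156 after normoxic culture and 13986 and 15707 after hypoxia. P2rx2 in the modiolus read 4585 native, 3274.5 and 3323 after normoxic culture and 4155.5 and 2846 after hypoxia. P2rx2 in the stria vascularis read 9326 native, 9098 and 10311 after normoxic culture and 10965 and 8926 after hypoxia. The highest modiolus array reached less than the lowest array elsewhere. Signals of P2rx2 on AF020757_s_at were 4744 and 5244 in native organ of Corti, 9333 and 14555 after normoxic culture and 10148 and 14500.5 after hypoxia. P2rx2 in the modiolus read 61.3 native, 67.6 and 278 after normoxic culture and 452 and 328 after hypoxia. P2rx2 in the stria vascularis read 5568 native, 6379.8 and 7192 after normoxic culture and 4811 and 6841 after hypoxia. The modiolus was below background in all 3 conditions on this probe set. Signals of P2rx2 on AF020758_g_at were 5698 and 5731 in native organ of Corti, 6997 and 11480 after normoxic culture and 7022 and 12052 after hypoxia. P2rx2 in the modiolus read 671 native, 369 and 252 after normoxic culture and 161 and 256 after hypoxia. P2rx2 in the stria vascularis read 5136 native, 4563 and 2583 after normoxic culture and 4153 and 4989.7 after hypoxia. Only the native modiolus array exceeded background here.

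The remaining probe sets of P2rx2 had the same order of regions. Signals of P2rx2 on AF028603_s_at were 7582 and 10846 in native organ of Corti, 7936 and 10081 after normoxic culture and 7145 and 10133 after hypoxia. P2rx2 in the modiolus read 1507 native, 751.5 and 104 after normoxic culture and 840.5 and 504 after hypoxia. P2rx2 in the stria vascularis read 7491 native, 4049 and 5497 after normoxic culture and 5223 and 4943.5 after hypoxia. Normoxic modiolus repeat 2 was the lowest array. Signals of P2rx2 on U14414_at were 5322 and 4799 in native organ of Corti, 4309 and 4835 after normoxic culture and 5895 and 5002 after hypoxia. P2rx2 in the modiolus read 1069 native, 1455 and 174 after normoxic culture and 860.4 and 906 after hypoxia. P2rx2 in the stria vascularis read 4122 native, 3806 and 4001 after normoxic culture and 2772 and 2747 after hypoxia. On all 5 probe sets the organ of Corti and the stria vascularis lay above every modiolus array. In organ of Corti minus modiolus the differences of P2rx2 were 1.82 ± 0.12 (SE) on AF020756_s_at (3.52-fold, adjusted p = 4.5e-07), 5.72 ± 0.29 on AF020757_s_at (at least 18.6-fold, adjusted p = 4.3e-08), 4.42 ± 0.23 on AF020758_g_at (at least 12.5-fold, adjusted p = 4.8e-08), 3.71 ± 0.38 on AF028603_s_at and 2.65 ± 0.39 on U14414_at. The sizes thus differed between probe sets of one gene, and which transcripts each detects is not given in the files used here. In modiolus minus stria vascularis they were -1.36, -5.15 (at least 12.5-fold), -3.57 (at least 6.93-fold), -3.07 and -2.15, with adjusted p values of 0.0023 or less.

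P2rx2 differed less between the organ of Corti and the stria vascularis. AF020756_s_at was higher in the organ of Corti by 0.45 ± 0.12 (SE, adjusted p = 0.022) and AF020758_g_at by 0.85 ± 0.23 (adjusted p = 0.021). Both calls were lost when arrays were centred on their median. Each was also lost without 5 of the arrays in turn: AF020756_s_at without native repeat 1, normoxic repeat 2 or hypoxic repeat 2 of the organ of Corti, normoxic repeat 1 or hypoxic repeat 2 of the stria (adjusted p = 0.059 to 0.065), and AF020758_g_at without native, normoxic or hypoxic repeat 2 of the organ of Corti, normoxic repeat 2 or hypoxic repeat 1 of the stria (adjusted p = 0.051 to 0.067). In native tissue alone, with 1 array of the modiolus and 1 of the stria, AF020757_s_at was higher in the organ of Corti than in the modiolus by 6.02 (adjusted p = 0.00011), AF020758_g_at by 3.06 and AF020756_s_at by 1.25 (adjusted p = 0.010), while AF028603_s_at (2.58) and U14414_at (2.22) did not pass. The spread in this comparison of native tissue, and in those below, came from the groups with 2 arrays, most of them cultured. In cultured groups alone all 5 passed.

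**Figure D5:**
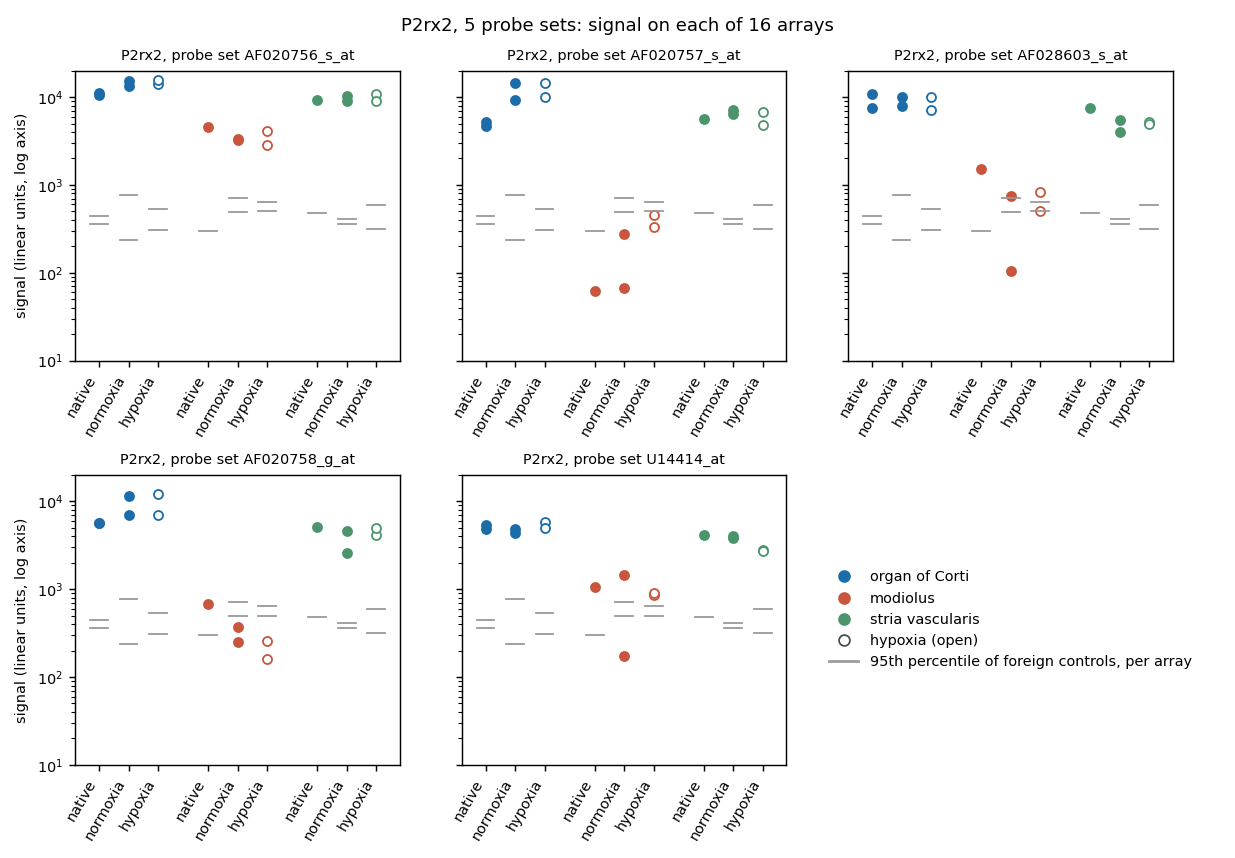
Signal of the 5 probe sets of P2rx2 on each of the 16 arrays by region and condition, on a log axis, with a grey line for the background percentile of each array. Modiolus arrays lie below all others in every panel, at 452.3 or less on AF020757_s_at and at 2846 to 4585 on AF020756_s_at.

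Culture left P2rx2 with no call in the mean of the regions. AF020757_s_at differed by 0.84 ± 0.31 (adjusted p = 0.056) and AF028603_s_at by -1.004 ± 0.41 (adjusted p = 0.083), in opposite directions. Within the modiolus AF028603_s_at fell by 2.33 (adjusted p = 0.045), and the call was lost without normoxic modiolus repeat 2, which read 103.9 (-0.99, adjusted p = 0.15), and without any of 10 others, all arrays of the organ of Corti and the 4 cultured ones of the stria (adjusted p = 0.055 to 0.062).

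P2rx3, the ATP receptor subunit of sensory neurons, had another pattern. Signals of P2rx3 on X90651_at were 1931.5 and 1185 in native organ of Corti, 856 and 931 after normoxic culture and 887 and 960.2 after hypoxia. P2rx3 in the modiolus read 1572 native, 996 and 721 after normoxic culture and 869.8 and 1383 after hypoxia. P2rx3 in the stria vascularis read 350.1 native, 494 and 449.5 after normoxic culture and 549 and 400.4 after hypoxia. Every array of the organ of Corti and the modiolus lay above every array of the stria vascularis. P2rx3 was higher in the organ of Corti than in the stria vascularis, by 1.30 ± 0.24 (SE, at least 2.23-fold, adjusted p = 0.0016) and by 1.38 ± 0.25 in the modiolus (at least 2.35-fold, adjusted p = 0.0016). Between the organ of Corti and the modiolus it differed by -0.08 ± 0.24 without passing. Of the 9 neuronal markers 9 were higher in the organ of Corti than in the stria vascularis and 7 in the modiolus, and their part in the pattern of P2rx3 was not tested. P2rx4, an ATP receptor of epithelia and macrophages, was above background on all arrays. Signals of P2rx4 on U47031_at were 2019 and 1746 in native organ of Corti, 1614 and 1642 after normoxic culture and 1607 and 1500.2 after hypoxia. P2rx4 in the modiolus read 2416 native, 2237 and 2413 after normoxic culture and 1998 and 1760.1 after hypoxia. P2rx4 in the stria vascularis read 2194 native, 2898 and 2407 after normoxic culture and 2514 and 1513 after hypoxia. Its regions overlapped. P2rx7, a receptor of immune cells and glia, spanned 53.3 to 337.7 and was above background on 1 array, normoxic organ of Corti repeat 2. Signals of P2rx7 on X95882_at were 153 and 53.3 in native organ of Corti, 77.6 and 243 after normoxic culture and 213 and 299 after hypoxia. P2rx7 in the modiolus read 189.8 native, 338 and 304 after normoxic culture and 158 and 289.9 after hypoxia. P2rx7 in the stria vascularis read 293 native, 120.2 and 279 after normoxic culture and 222 and 225.5 after hypoxia. These values were too near the background to order the groups.

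Other members differed between the regions as well. Asic2 on U53211_at was lower in the modiolus. Signals of Asic2 on U53211_at were 1118 and 1108 in native organ of Corti, 1168 and 1841 after normoxic culture and 1084 and 1085 after hypoxia. Asic2 in the modiolus read 379 native, 526 and 179 after normoxic culture and 200 and 319.7 after hypoxia. Asic2 in the stria vascularis read 1061 native, 1046 and 1093 after normoxic culture and 1210.5 and 1345 after hypoxia. No modiolus array reached the lowest array elsewhere. Asic2 was higher in the organ of Corti than in the modiolus by 1.91 ± 0.29 (SE, at least 2.36-fold, adjusted p = 0.00041) and lower in the modiolus than in the stria by 1.82 (at least 2.21-fold, adjusted p = 0.00095). In native tissue alone neither Asic2 difference passed (1.52 and -1.45, adjusted p = 0.19 and 0.26). Y14635_s_at, the other probe set of Asic2, did not pass in any of the 3 comparisons. Scnn1g, the gamma subunit of the epithelial sodium channel, passed narrowly. Signals of Scnn1g on X77933_at were 885 and 871 in native organ of Corti, 2085 and 1249 after normoxic culture and 1439 and 1144 after hypoxia. Scnn1g in the modiolus read 479 native, 943.5 and 111 after normoxic culture and 686 and 739 after hypoxia. Scnn1g in the stria vascularis read 474.5 native, 803 and 603 after normoxic culture and 1139.9 and 669 after hypoxia. Scnn1g was higher in the organ of Corti than in the modiolus by 1.30 ± 0.44 (SE, adjusted p = 0.0499), and the call was lost without any of 12 arrays (all arrays of the organ of Corti, both hypoxic arrays of the modiolus and all cultured arrays of the stria), at adjusted p values of up to 0.11.

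Of the 5 auxiliary calcium channel subunits Cacnb3, Cacna2d1 and Cacnb2 were lower in the modiolus than in both other regions, as was Itpr1 on J05510_at, and their values on each array are given above. None of the 18 alpha subunit probe sets passed as lower there, and 7 of these were above background in no group. Cacnb3 was higher in the organ of Corti than in the modiolus by 1.22 ± 0.15 (SE, 2.33-fold, adjusted p = 7.3e-05) and than in the stria vascularis by 0.72 ± 0.15 (1.65-fold, adjusted p = 0.0037), the latter a call lost when arrays were centred on their median (0.42, adjusted p = 0.11). Cacna2d1 was higher in the organ of Corti than in the modiolus by 1.08 (at least 1.93-fold), Cacnb2 by 1.27 (at least 1.07-fold) and Itpr1 by 1.23 (at least 1.41-fold), with adjusted p values of 0.012 or less. In native tissue alone none of these differences between organ of Corti and modiolus passed: Cacnb3 differed by 0.74 (adjusted p = 0.21), Cacna2d1 by 0.97 (0.23), Cacnb2 by 0.20 (0.95) and Itpr1 by 1.63 (0.19). In cultured groups alone all but Itpr1 passed (1.03, adjusted p = 0.051). Against the stria vascularis the modiolus was lower in Cacna2d1 (-1.37, at least 2.34-fold), Cacnb2 (-1.72, at least 1.46-fold), Itpr1 (-1.63, at least 1.86-fold) and Cacnb3 (-0.50). In native tissue alone Cacnb3 did not differ in that direction (0.0042, adjusted p = 0.995), and of the 4 only Cacna2d1 passed there (-2.06, adjusted p = 0.012). The Cacnb3 call was lost without either native organ of Corti array, normoxic modiolus repeat 1, normoxic stria repeat 2, hypoxic modiolus repeat 1 or hypoxic stria repeat 2 (adjusted p = 0.050 to 0.087).

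Nalcn, too, was lower in the modiolus in the mean of the conditions. It was higher in the organ of Corti by 1.62 ± 0.50 (SE, at least 1.79-fold, adjusted p = 0.034) and 1.91 ± 0.34 (at least 1.3-fold, adjusted p = 0.0011) on its 2 probe sets. In modiolus minus stria vascularis AF078779_g_at differed by -1.80 ± 0.36 (adjusted p = 0.0027), while AF078779_at differed by -1.37 without passing. For AF078779_g_at that difference was -0.70 in native tissue alone, without passing. In native tissue alone the organ of Corti exceeded the modiolus by 0.51 and 0.88 without passing (adjusted p = 0.91 and 0.66), and in cultured groups alone by 2.18 and 2.42 (adjusted p = 0.014 and 0.00053). The AF078779_at call was lost without any of 7 arrays (both native and both normoxic arrays and hypoxic repeat 1 of the organ of Corti, normoxic repeat 2 and hypoxic repeat 1 of the modiolus, adjusted p = 0.061 to 0.073).

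Members that were higher in the modiolus were fewer. Scn7a on S75991_at was lower in the organ of Corti than in the modiolus (-0.71 ± 0.19, adjusted p = 0.018) and higher in the modiolus than in the stria vascularis (1.14 ± 0.21, 2.21-fold, adjusted p = 0.0014). The first of these Scn7a calls was lost in native tissue alone (adjusted p = 0.27) and in cultured groups alone (0.053), and the second in native tissue alone (0.065). On rc_AA925248_at Scn7a was above the stria vascularis by 3.78 in organ of Corti arrays, at least 2.53-fold, and by 4.38 in the modiolus, where no at-least fold is given because normoxic modiolus was not above background. Cacna1a on rc_AI229031_s_at was higher in the modiolus than in the organ of Corti (-0.67 ± 0.21, adjusted p = 0.035) and the stria vascularis (0.67 ± 0.22, adjusted p = 0.047), and both calls were lost when arrays were centred on their median. The first Cacna1a call was lost without any of 7 arrays (native repeat 2, both normoxic and hypoxic repeat 2 of the organ of Corti, both normoxic and hypoxic repeat 1 of the modiolus, adjusted p up to 0.095) and the second without any of 9 (all normoxic arrays, hypoxic modiolus repeat 1 and both hypoxic stria arrays, adjusted p up to 0.10). Scn10a passed in organ of Corti minus modiolus (-1.04, adjusted p = 0.039) at signals near or below background throughout, and lost the call without any of 8 arrays.

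Cyclic nucleotide-gated channels, the transduction channels of photoreceptors and olfactory neurons, were measured by 8 probe sets for Cnga1, Cnga3, Cnga4 and Cngb1. Cngb1 on AJ224680_g_at was bright on all arrays, from 3017 to 4957, and its other 2 probe sets were AF015728_s_at and AJ000515_s_at, the latter above background on 2 arrays. Signals of Cngb1 on AF015728_s_at were 1163 and 657 in native organ of Corti, 748 and 641 after normoxic culture and 1256 and 452 after hypoxia. Cngb1 in the modiolus read 1396 native, 1002 and 918 after normoxic culture and 1150.5 and 1212 after hypoxia. Cngb1 in the stria vascularis read 967 native, 585 and 189.7 after normoxic culture and 491 and 264 after hypoxia. The modiolus values lay within 918.1 to 1396 and those of the stria fell to 189.7. Cngb1 on this probe set was higher in the modiolus than in the stria vascularis by 1.22 ± 0.39 (SE, at least 2.2-fold, adjusted p = 0.039). The call was lost under both other scalings and without any of 8 arrays (all normoxic arrays except stria repeat 1, both hypoxic modiolus arrays and hypoxic stria repeat 2, adjusted p of up to 0.090). Cnga1 spanned 179.5 to 1049 on its brighter probe set, Cnga3 84 to 668.6 and Cnga4 57.6 to 738.9, with no call.

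Hypoxic explants were compared with normoxic ones to see what 5 h of low oxygen and the recovery after it did to the transcripts. No member passed in the mean of the 3 regions in limma, against 0.158% of all probe sets, and 7 members (10%) had an unadjusted p below 0.05, against 7.44% of all. In the organ of Corti 0 members passed, against 0% of all, in the modiolus 0, against 0.0792%, and in the stria vascularis 0, against 0.238%, with 2, 8 and 3 members (2.86%, 11.4% and 4.29%) below an unadjusted p of 0.05, against 4.51%, 7.997% and 4.99% of all. Whether the difference varied between regions passed for 0 members and 0% of all probe sets, with 4 members (5.71%) below an unadjusted p of 0.05, against 5.23% of all. The smallest adjusted p values in that test were 0.82 for Scn10a, 0.87 for Cacnb1 and 0.90 for Scn4a. The median log2 difference was 0.12 for the members and 0.05 for all probe sets. Without normoxic modiolus repeat 1, 2 members passed in the modiolus and 1 in the test between regions.

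The smallest p-values toward a rise in the mean of the regions belonged to P2rx6, an ATP receptor subunit that works mostly with others, Scnn1a and Cacng1. Signals of P2rx6 on X92070_at were 1287 and 1118 in native organ of Corti, 1014 and 463 after normoxic culture and 1522 and 1140.2 after hypoxia. P2rx6 in the modiolus read 1156 native, 597 and 349 after normoxic culture and 1990.4 and 987.5 after hypoxia. P2rx6 in the stria vascularis read 935 native, 599.8 and 938 after normoxic culture and 682.5 and 731 after hypoxia. P2rx6 differed by 0.81 ± 0.27 (SE, adjusted p = 0.40), with 5 of 6 hypoxic arrays above the normoxic array of the same region and repeat. The difference was 0.82 in scan session 2 and 0.79 in session 3, and with the session as a term the adjusted p was 0.24. Scnn1a differed by 0.62 ± 0.22 (adjusted p = 0.42, 0.65 and 0.60 by session, 0.36 with the session as a term) and Cacng1 by 0.68 ± 0.23 (adjusted p = 0.42, 0.46 and 0.89 by session, 0.24 with the session as a term), each with 5 of 6 pairs higher. Toward a fall, Itpr1 differed by -0.70 ± 0.29 (adjusted p = 0.60, -1.21 and -0.19 by session), Scn9a on U79568_s_at by -0.92 ± 0.45 (adjusted p = 0.73) and P2rx4 by -0.27 ± 0.15 (adjusted p = 0.84), with 0 of 6 pairs higher for P2rx4. The other Scn9a probe set, AF000368_at, differed by 0.35 in the mean of the regions (limma adjusted p = 0.96). Of the 70 members 33 had the same sign in both sessions.

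Within single regions the smallest p-values did not pass either. In the modiolus Scnn1a differed by 1.26 ± 0.37 and P2rx6 by 1.59 ± 0.47 (both adjusted p = 0.35), and P2rx2 on AF020757_s_at, below background, by 1.36. Downwards Cacnb1 differed by -0.90, Scn9a on U79568_s_at by -1.68 and Itpr1 on J05510_at by -0.93, the last 2 not above background there. The brighter Scn9a probe set, AF000368_at, pointed the other way. It read 64.7 and 212 in normoxic modiolus, not above background, and 616 and 314 in hypoxic modiolus. In the organ of Corti Scn10a, below background, differed by 2.31 ± 0.54 (adjusted p = 0.36), Cacna1b on AF055477_at by 1.66 and Cacna2d1 by 0.65. Downwards the dim Cacna1c probe set M89924cds_s_at differed by -1.01, Scn2b, not above background, by -0.96 and Itpr1 by -0.70. In the stria vascularis, where the smallest adjusted p was 0.86, Scn4a on the dim M26643_at differed by 1.66 and Cacng1 by 0.90. Scn7a on rc_AA925248_at, not above background there, differed by 1.01. Downwards Itpr1 on the dim U38812_s_at differed by -0.996, Scn9a on U79568_s_at by -1.42 and Cnga3 by -1.34.

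Genes that handle the calcium admitted by these channels were read beside them. Of 18 measured partners, among them calmodulins, calmodulin-dependent kinases, calcineurin subunits, calcium pumps and exchangers, 7 fell and 0 rose in culture, beside 18.7% and 13.3% of all probe sets, with a median log2 difference of -0.50 against -0.14 for all probe sets. Hypoxia changed 0 of 18. Within the organ of Corti 5 fell, within the modiolus 5 and within the stria vascularis 1 of 18, beside 8.79%, 10.8% and 6.33% of all probe sets. Between regions 1 was lower in the organ of Corti than in the modiolus (12.5% of all), 3 were higher in the organ of Corti than in the stria vascularis (11.2% of all) and 4 higher in the modiolus than in the stria (16.7% of all). The receptors for nucleotides that act through G proteins were represented by P2ry1 and P2ry4, of which 1 fell in culture.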

How the data were processed

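Each of 16 arrays gave 1 value per probe set. The deposited intensity values were linear and, as tested on the table, had been scaled by the authors so that the 2% trimmed mean was 2500 on each array; the summary software is not given in the sources used here. The deposited instrument records, other text without expression values, gave the chip type and scan session. All 16 value columns were matched to samples by name, and 0 were left unused. Platform annotation gave 1 symbol to 1137 of the 1263 probe sets tested, several to 8 and none to 118, and all 70 members were matched to current genes by gene number; 59 controls were not tested. The number of arrays limits the precision.

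Values were tested as log2(value + 16) in limma 3.58.1 (R 4.3.3) with 9 group means, a variance trend in eBayes, 7 residual degrees of freedom and Benjamini-Hochberg adjustment over all 1263 probe sets. Fold changes are on that scale and understate changes of low signals. The code was tested on simulated data. Two-sided p-values are given throughout.

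The members and lists were chosen with earlier results of these data known. By the naming rule, every member gene is named, values on every array are given for probe sets that passed (at most 10 each way per comparison) and for a preset list of genes above background somewhere, and where under 5 passed, the 3 smallest p-values each way (in tests between regions, which have no direction, the smallest) are given. The brightest probe set stands for a gene in marker lists.

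Repeat numbers were checked for pairing: deviations of same-numbered arrays correlated at -0.0058 to 0.284 over 15 pairs of groups, 10 above 0.1. In the cultures the repeat number is also the scan session. Since not every pair was above 0.1, the repeats were not treated as paired, and fits with the block are given as alternatives. Alternatives were other pseudocounts and scalings, a filter on dim probe sets, no trend and array weights (statmod 1.5.0 for random blocks). Others were a replicate or session block, fewer groups and each array left out in turn. Where leaving an array out left 1 array in a group, that group was assumed to vary like the others. Region differences limited to native groups still took their spread from the groups with 2 arrays, most of them cultured.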

Additional observations from a re-analysis of the deposited data

Results flagged for a closer look

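The culture difference of Scn7a on rc_AA925248_at differed between the regions by a moderated F test in limma (adjusted p = 0.015). Organ of Corti cultures differed from native tissue by -1.96 on the log2 scale, and modiolus cultures by -4.66. In the stria vascularis the native array read 18.9 and no array was above background. The second probe set, S75991_at, did not pass this test (adjusted p = 0.90). No group held 4 arrays, so single arrays were not screened for outlying values.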

How the results depend on the processing

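With each array left out in turn, the count of members called ran from 11 to 16 for culture in the mean of the regions, 0 to 7 in the organ of Corti, 7 to 10 in the modiolus, 0 to 2 in the stria vascularis, 12 to 18 for organ of Corti minus modiolus, 4 to 8 for organ of Corti minus stria vascularis, 13 to 17 for modiolus minus stria vascularis, 0 to 2 for hypoxia in the modiolus, 0 to 0 for hypoxia in the mean, the organ of Corti and the stria, 1 to 3 for culture by region and 0 to 1 for hypoxia by region. These ranges do not cover the native modiolus array or the native stria array where a comparison needed it, since each stands alone in its group. Quantile normalization gave 4 calls for culture in the organ of Corti (7 in the report) and 1 in the stria vascularis (2). A fit on only the arrays compared gave 4 in the modiolus (10), 0 in the stria vascularis (2) and 9 for organ of Corti minus stria vascularis (5), and no variance trend gave 3 for the last. Native groups only, an alternative chosen after seeing the data, gave 3, 2 and 6 calls for the 3 region differences (16, 5 and 16). With the replicate block the counts were 14 for culture in the mean, 9 in the organ of Corti (1 higher, 8 lower), 11 in the modiolus (2 higher, 9 lower) and 2 in the stria vascularis, 18, 7 and 20 for the regions (13 and 5, 7 and 0, 9 and 11 higher and lower) and 0 for hypoxia; among the named results it ended 1 call, that of P2rx2 on AF028603_s_at in modiolus culture (adjusted p = 0.065). The replicate block also took native arrays by repeat number, although all were of scan session 1. It thereby moved the culture differences of the modiolus and the stria vascularis, which have 1 native array each. For culture in the stria vascularis the median of all probe sets was -0.17 without and -0.11 with the block. Of 99 named results 71 passed, and 25 of these passed under every alternative run. All 99 together had 2567 alternative values, of which 231 lost the call and 2 reversed. Values of results that had not passed are among the 2567 and had no call to lose, so that 231 of 2567 understates how often calls were lost. The 2 that reversed were Itpr1 under hypoxia in the organ of Corti without hypoxic repeat 1 (0.061, and -1.46 without repeat 2) and Cacnb3 in modiolus minus stria vascularis in native groups (0.0042). The cause was not tested. Signals near background limit Scn1a, Scn10a, Cacna1d and P2rx7, and culture cannot be told apart from scan session.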
